A study of Mus musculus with 4 samples.

Results

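The genes of 5 families of metal ion carriers were followed in mouse T cells. They were all genes whose symbol belongs to the Slc30 family (ZnT, 10 genes), the Slc39 family (ZIP, 14 genes), the Slc11 family (2 genes), the Slc40 family (1 gene) or the Slc41 family (3 genes). The choice was by symbol alone and gave 30 of the 50600 genes listed. The libraries came from primary T cells of the mouse strain C57BL/6NJ, in 1 group of 4 biological replicates, with no treatment, sex or age given, and the same donor identifier on all 4. A Th0 state, activation and a time of 48 hours appear only in the names of the aligned files, and the linked differentiation protocol is named for CD4+ T cells. Total RNA-seq is the labelled assay, but the library protocol it links to has polyA+ RNA in its name. No control or second condition was available, so the questions were which carriers the cells expressed, how they ranked, and how steady each was between replicates.

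ZIP proteins move zinc into the cytosol, from outside the cell or out of organelles, and ZnT proteins move it the other way, out of the cell or into organelles and vesicles. Free cytosolic zinc acts as a signal in T cells after receptor engagement, and dividing cells need zinc, iron and magnesium for metalloenzymes and ATP use. Slc11 proteins carry divalent metals including iron, Slc40a1 (ferroportin) is the iron exporter, and Slc41 proteins carry magnesium. Several of these genes are known to be controlled by the metals themselves. Iron regulatory proteins bind a hairpin, the iron-responsive element, in the untranslated ends of some iron mRNAs, and the zinc sensor Mtf1 binds short metal-response elements in promoters.

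The iron-responsive element was searched for because it is the best-known control sequence among these genes. The search asked for the loop CAGTGN with a last base other than G, an unpaired C 5 bases before the loop, 5 upper stem pairs with at most 1 extra base on the 3′ arm, and at least 4 of 5 lower stem pairs. Over GENCODE M21 transcripts (build GRCm38) it matched 56 of 21901 protein-coding genes (0.256%), of which 24 had no extra base, and 2 of the 30 carriers. In Slc11a2 (DMT1, the main iron importer of many cells) the match lay in the 3′ UTR of 1 of 6 coding transcripts, at chr15:100395152-100395181 on the minus strand. In Slc40a1 it lay in the 5′ UTR of 1 of 4, at chr1:45925464-45925493 on the minus strand. The sites are shown 5′ to 3′ as DNA with the loop in capitals, beside 1 site of the transferrin receptor gene Tfrc (3′ UTR, chr16:32631219-32631248, plus strand) and the site of the ferritin heavy chain gene Fth1 (5′ UTR, chr19:9982732-9982761, plus strand).
Slc11a2: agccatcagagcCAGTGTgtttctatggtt
Slc40a1: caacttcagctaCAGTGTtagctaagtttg
Tfrc: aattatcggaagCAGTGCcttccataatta
Fth1: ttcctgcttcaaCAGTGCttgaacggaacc
The pairing pattern places an extra base on the 3′ arm in Slc11a2 and none in the other 3. A match describes the sequence and does not show binding, and counts per gene do not tell the Slc11a2 transcripts with and without the site apart.

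The core of the metal-response element, TGCACNC or TGCGCNC on either strand, was searched for in RefSeq promoter windows (GRCm38.p6) running from 250 bases before to 50 after a gene start. Such a window was found for 24 of the 30 carriers, which had 29 windows in all. At least 1 core stood in 15 of these 29 windows, covering 14 carriers, against 25.7% of 32851 windows of the same kind genome-wide. The promoter of Slc30a1, the zinc exporter of the cell surface and a textbook Mtf1 target, held 2 cores, as 7.11% of all windows held 2 or more. That of the metallothionein gene Mt1, the reference Mtf1 target, held 3, and 1.97% of all windows held 3 or more. Slc30a1 was not the carrier with most cores: the windows of Slc30a4 and Slc30a10 held 3 each, and that of Slc30a2 held 2. The stretches are printed with the cores in capitals, Slc30a1 from chr1:191906730-191906825 (plus strand) and Mt1 from chr8:94179058-94179123 (plus strand).
Slc30a1: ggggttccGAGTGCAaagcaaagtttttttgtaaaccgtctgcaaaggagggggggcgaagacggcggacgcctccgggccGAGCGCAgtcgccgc
Mt1: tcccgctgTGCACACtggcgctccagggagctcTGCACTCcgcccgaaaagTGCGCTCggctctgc
Both cores of Slc30a1 lie on the opposite strand to the gene, and the 3 of Mt1 on the strand of the gene. Mtf1 itself was expressed at 48.2 CPM ± 2.04 (SD, n = 4), Slc30a1 at 17.5 ± 1.34 and Mt1 at 3.27 ± 0.451. CPM is a gene's count scaled to the total assigned counts of its library. The data hold no metal treatment, so no response of these promoters was measured.

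Assigned counts totalled 45110199 to 127755788 per library, a 2.83-fold range, and a count of 0 allowed up to 0.0235 to 0.0665 CPM when 3 counts are taken as its limit, which covers counting error only. Every pair of libraries differed beyond counting noise (chi-square per degree of freedom 7.78 to 24.2), so each counted as 1 sample, and the p-values reflect no more than the spread among these 4 samples, which may be technical. Of 8 T cell markers, 7 lay above 1 CPM, and 69.3% of protein-coding genes with a count did so too. The median of the T cell list was 210.2 CPM. The highest median among the other marker lists was 0.469 CPM, that of the B cell list. Of the CD8 coreceptor chains, Cd8b1 was above at 9.62 CPM ± 0.749 and Cd8a below at 0.279 ± 0.143, against 931 ± 9.79 for Cd4. Of markers of other cells, 2 of 10 macrophage genes lay above (Adgre1 and Cd68), 1 of 5 dendritic cell genes (Zbtb46), 1 of 6 epithelial and liver genes (Epcam), and none of 5 B cell or 7 erythroid genes. In bulk RNA, fewer cells with a transcript and less of it per cell cannot be told apart.

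Most of these carriers were expressed. With log2(CPM + 0.1) tested one-sided by limma in each direction, and p-values Benjamini-Hochberg adjusted over 23365 genes with a count, 24 of the 27 carriers with a count lay above 1 CPM (88.9%). The share was 47.4% among all genes with a count and 69.3% among the 15076 protein-coding ones. Slc39a5 and Slc30a10 lay below 1 CPM, a call made for 48.3% of all genes with a count, and Slc39a2 passed neither test. Slc40a1, Slc39a12 and Slc30a8 had no count in any library. To set genes beside each other, counts were also divided by exon length and scaled to the same total in every library (TPM). The median level was 16.6 TPM over the 30 carriers and 22.9 TPM over the 27 with a count, against 14.2 TPM for protein-coding genes with a count and 1.8 TPM for all genes with a count.

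**Figure D1:**
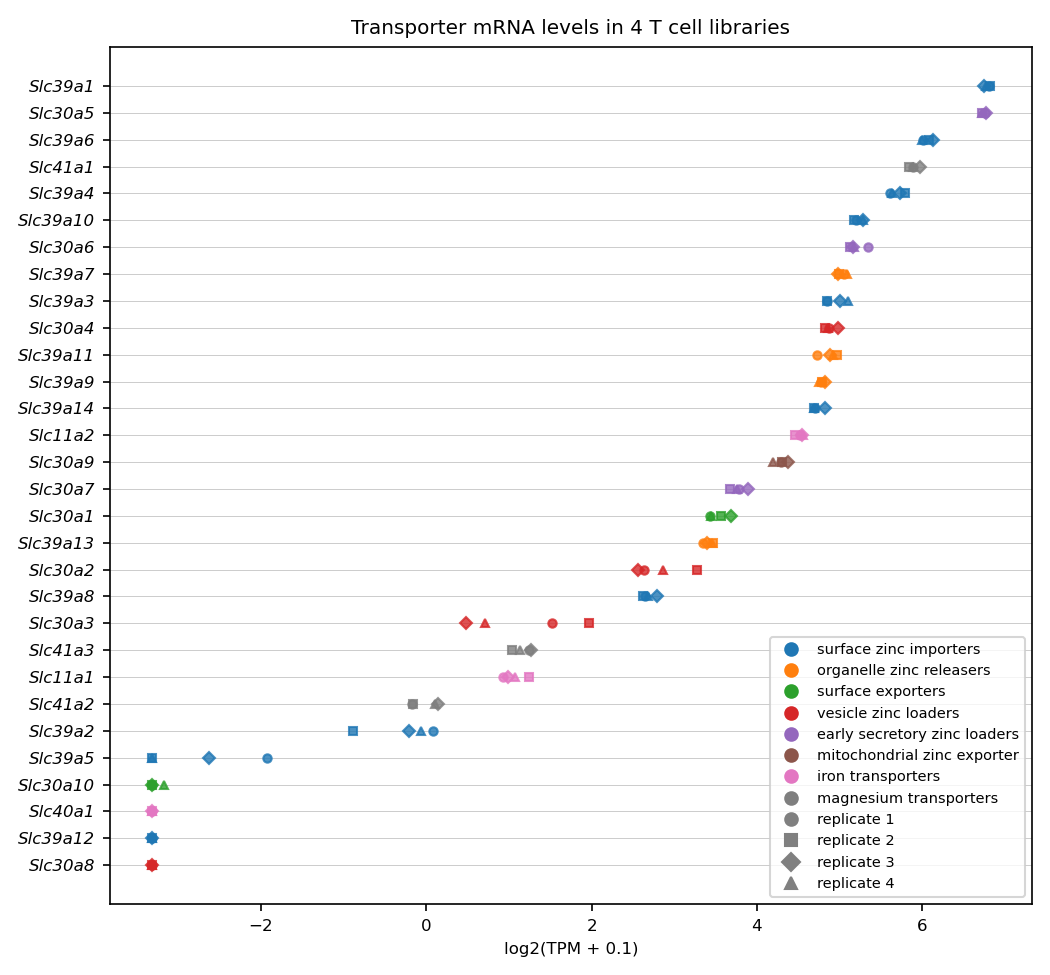
Level of each carrier as log2(TPM + 0.1) in the 4 libraries (marker shape for the replicate, colour for the role), ordered by mean TPM. Slc39a1 and Slc30a5 stand at the top with overlapping points, Slc30a2 and Slc30a3 are spread widest among the carriers above 1 CPM, and Slc40a1, Slc39a12 and Slc30a8 sit at the value of a 0.

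In order of mean TPM over all exon bases, Slc39a1 (110.1 TPM ± 2.59) and Slc30a5 (107 ± 1.31) led, with ranges that overlapped and the same order in 3 of 4 libraries. Slc39a6, Slc41a1, Slc39a4 and Slc39a10 followed, each below the one before it in all 4 libraries. From Slc39a7 (32.6 TPM) through Slc39a3, Slc30a4, Slc39a11 and Slc39a9 to Slc39a14 (26.5 TPM), each neighbouring pair had overlapping ranges, while Slc39a7 and Slc39a3 at its top lay above Slc39a9 and Slc39a14 at its foot in all 4 libraries with no overlap. Over the whole ranking, 14 of 26 neighbouring pairs of carriers with a count overlapped and 13 kept their order in 4 of 4 libraries.

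The zinc importers of the cell surface, with 10 of the 30 genes, together held the largest share of the carrier transcripts. Their summed level was 323, 333, 337 and 329 TPM in replicates 1 to 4 (330.4 ± 5.97), out of 746 TPM ± 9.22 for all 30 carriers. Of these 10 genes, 7 lay above 1 CPM and 1 had no count, where 69.3% of protein-coding genes with a count lay above. All 14 ZIP genes summed to 430.4 TPM ± 7.33 and all 10 ZnT genes to 228 ± 4.04, and the ZIP sum was the higher in every library (420 to 436 TPM against 223 to 231). The roles other than the surface importers had 1 to 4 genes each, and no sum was divided by the number of genes. These are sums of transcripts per length and do not measure transport.

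**Figure D2:**
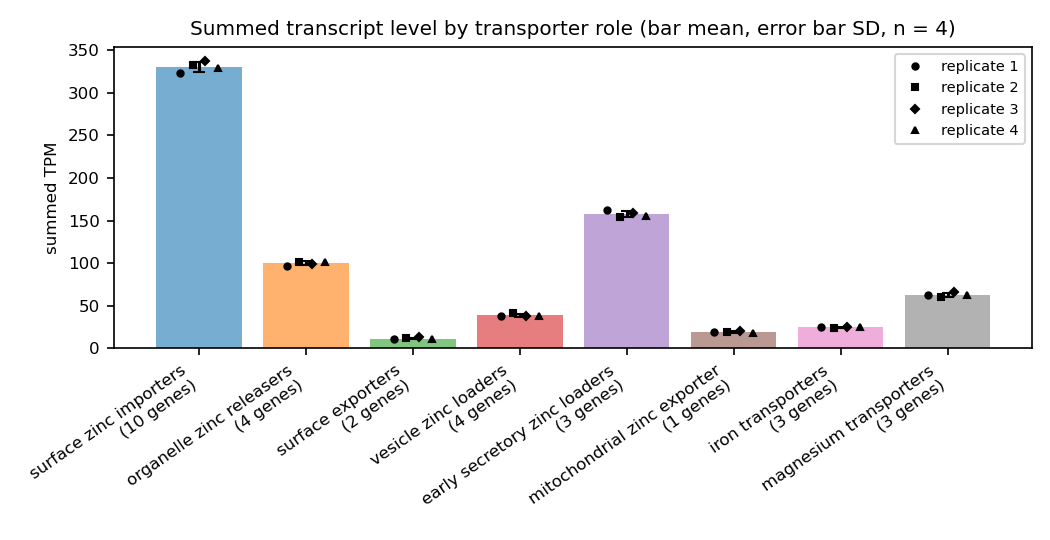
Summed TPM of the carriers in each role (bar, mean of 4 libraries; error bar, SD; points, single libraries; the axis starts at 0). The surface zinc importers stand highest at 330.4 TPM, and the surface exporters are lowest at 11.5 TPM. The early secretory loaders stand at 158 TPM and the organelle releasers at 99.9 TPM, or 231 TPM (not drawn) if Slc39a7 is read over its unshared bases.

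Slc39a1, encoding ZIP1, a broadly expressed zinc importer (ENSMUSG00000052310.9, chr3:90248172-90253612, mm10), was counted 4409, 3510, 9294 and 4017 times in replicates 1 to 4, or 112, 113, 107 and 109 TPM. All 4 libraries lay within a narrow band, and this gene alone made up 33.3% ± 1.21 of the surface importers' sum. A processed copy, Slc39a1-ps, is 97.7% identical over 973 bases, 41.2% of the transcript aligned, so some reads could map to both. The counting command did not ask for such reads to be kept. The copy's own count, 0.0882 CPM ± 0.135, therefore does not show how many were lost, and Slc39a1 could be undercounted. Its close relatives in the family were lower: Slc39a3 (ZIP3) had 28.6, 28.8, 32 and 34.2 TPM, and Slc39a2 (ZIP2, best known from skin) had 0.956, 0.44, 0.765 and 0.857 TPM. The log2 ratio of Slc39a1 was 1.83 ± 0.15 over Slc39a3 and 7.05 ± 0.44 over Slc39a2, on TPM + 0.1. Slc39a2 was lowest in replicate 2, with 20 counts, and its mean of 0.758 CPM ± 0.226 passed the test in neither direction (limma adjusted p below 1 CPM = 0.121).

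Slc39a6 (ZIP6) and Slc39a10 (ZIP10) encode a related pair that can form a joint importer and have been studied in lymphocyte activation and survival. Slc39a6 (chr18:24579881-24603817) stood at 64.3, 67.9, 70.2 and 63.8 TPM and Slc39a10 (chr1:46807544-46892852) at 36.7, 36.1, 38.7 and 38.9 TPM. The ranges did not overlap, and Slc39a6 was higher in 4 of 4 libraries, with a log2 ratio of 0.82 ± 0.08. Without length correction the ratio in CPM fell to 0.24, since the annotated exons of Slc39a10 are longer (6095 against 4073 bases).

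Slc39a4 (ZIP4), known as the zinc importer of the gut epithelium, ranked 5 among the carriers, or 6 if Slc39a7 is read over its unshared exon bases, as described for that gene. It was counted 1803, 1625, 4353 and 1718 times, or 48.6, 55.4, 53.2 and 49.6 TPM (51.7 ± 3.19). Slc39a5 (ZIP5), known from gut and pancreas, had 6, 0, 5 and 0 counts. The epithelial and liver markers summed to 1.42 to 1.97 CPM, most of it Epcam at 1.47 CPM. Krt18 had 60 counts in all, Cdh1 had 3 and Krt8 had none. Slc39a4 stood at 33.5 CPM ± 1.98, and how much of it came from such cells was not tested.

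Slc39a8 (ZIP8) and Slc39a14 (ZIP14) carry manganese and iron as well as zinc, and ZIP8 has been described on lysosomes of T cells. Slc39a8 was nevertheless grouped with the surface importers, and it made up 1.92% ± 0.0885 of their sum. Slc39a14 had 26, 25.7, 28.3 and 25.8 TPM and Slc39a8 6.18, 6.05, 6.85 and 6.34 TPM. The log2 ratio of Slc39a8 over Slc39a14 was -2.04 with an SD of 0.03 across libraries, the smallest SD of any pair compared. Both were highest in replicate 3. The brain-enriched Slc39a12 (ZIP12) had no count.

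All 4 ZIP genes grouped as releasing zinc from organelles, without Slc39a8, lay above 1 CPM, as did 69.3% of protein-coding genes with a count. Their sum was 99.9 TPM ± 2.35. Slc39a7 (ZIP7, of the endoplasmic reticulum), Slc39a11 (ZIP11) and Slc39a9 (ZIP9) each held 27.5% to 32.6% of it, and Slc39a13 (ZIP13) 10.6% ± 0.211. Slc39a9 and Slc39a11 were not separated: their log2 ratio was -0.09 ± 0.11, with Slc39a9 higher in 1 of 4 libraries (exact sign-flip permutation p = 0.25, two-sided). With the length of the longest protein-coding transcript in place of all exon bases this ratio became 0.54, and in CPM 1.51, so its direction depends on the length used. The level of Slc39a7 also depends on the annotation. Of its 2594 exon bases (chr17:34028267-34031690), 2078 (80.1%) are shared on the same strand with Gm20427, a gene model spanning chr17:34026034-34031572, and the counting command in the file headers did not ask for reads that overlap several genes to be kept. Sharing of at least 50% of exon bases was found for 1.12% of genes with a count and for 1 of the 30 carriers. Gm20427 was counted 33, 92, 97 and 19 times, and Slc39a7 1431, 1085, 2995 and 1379 times. Over all exon bases Slc39a7 had 33, 31.7, 31.4 and 34.1 TPM. If all its counts came from the 516 bases it does not share, the values would be 166, 159, 158 and 172 TPM, above every other carrier in all 4 libraries. The organelle releasers would then sum to 231 TPM ± 5.85. Its place in the ranking therefore cannot be fixed from these counts. Its log2 ratio over Slc39a13 was 1.61 ± 0.08 over all exon bases and 3.94 over the unshared ones. With the longest-transcript length it was 0.80, and in CPM 0.71, so the direction held and the size did not.

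Of the cell surface exporters, Slc30a1 (ZnT1, ENSMUSG00000037434.7, chr1:191906767-191913247) carried 99.97% of the transcripts. It was counted 935, 806, 2461 and 880 times, or 10.7, 11.7, 12.8 and 10.8 TPM (11.5 ± 0.969), lowest in replicate 1 and highest in replicate 3. Slc30a10, the manganese exporter best known from liver and brain, had 1 count in 1 library. Slc39a10 exceeded Slc30a1 in 4 of 4 libraries with a log2 ratio of 1.71 ± 0.12.

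The ZnT proteins of the early secretory pathway load zinc onto enzymes as they are made, ZnT5 and ZnT6 as a joint complex and ZnT7 on its own. All 3 genes, like 69.3% of protein-coding genes with a count, lay above 1 CPM, and they summed to 158 TPM ± 3.86. That was the second highest sum of any role with Slc39a7 at 32.6 TPM, and the third highest if the organelle releasers are taken at 231 TPM. Slc30a5 (chr13:100802649-100833427) stood at 108, 106, 109 and 106 TPM and was the steadiest carrier, with a coefficient of variation (CV, SD over mean) of 1.13% in CPM. Slc30a6 had 40.6, 34.9, 35.7 and 36.1 TPM, highest in replicate 1, and Slc30a7 had 13.7, 12.7, 14.7 and 13.4 TPM. Slc30a5 was higher than its partner Slc30a6 in 4 of 4 libraries, with a log2 ratio of 1.55 ± 0.09, and higher than Slc30a7 with 2.97 ± 0.07. The transcripts of the complex were thus not at equal levels per length. A Slc30a7 transcript is 100% identical to other gene models over 1165 bases (12.9% of it) and over 637 bases (7.1%). Whether reads were lost there was not tested, so Slc30a7 could be undercounted.

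Among the genes for vesicle zinc loaders, Slc30a4 (ZnT4, found widely in endosomes and lysosomes) dominated with 75.8% ± 5.75 of 39 TPM ± 1.86. It had 29.1, 28.3, 31.5 and 29 TPM. Slc30a2 (ZnT2, best known from mammary gland) and Slc30a3 (ZnT3, which fills synaptic vesicles with zinc) were lower, and Slc30a8 (ZnT8, of insulin granules) had no count. Slc30a2 stood at 6.38, 9.98, 5.93 and 7.46 CPM and Slc30a3 at 2.3, 3.17, 1.05 and 1.27 CPM. Both were highest in replicate 2 and lowest in replicate 3. The log2 ratio over Slc30a4 was -2.06 ± 0.38 for Slc30a2 and -3.72 ± 0.75 for Slc30a3, whose SD was the widest of the pairs compared. Summed B cell markers stood at 2.92, 3.21, 2.08 and 1.72 CPM, higher in replicates 1 and 2 as Slc30a3 was. The erythroid sum (0.351, 0.377, 0.196 and 0.169 CPM) and the T cell sum (2217.2, 2197.4, 2167.3 and 2183.5 CPM) split the same way. Those of the macrophage, dendritic cell, and epithelial and liver lists did not. The part of other cells in the values of Slc30a2 and Slc30a3 was not tested.

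Slc30a9 (ZnT9), which exports zinc from mitochondria, had 19.5, 19.6, 20.7 and 18.2 TPM. It exceeded Slc30a7 in 4 of 4 libraries, with a log2 ratio of 0.51 ± 0.08, which became 1.32 with the longest-transcript length. The possible undercount of Slc30a7 applies to this ratio too.

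Iron carriers summed to 24.9 TPM ± 0.585, of which Slc11a2 made up 92% ± 0.944. Slc11a2 (DMT1, ENSMUSG00000023030.16, chr15:100387898-100425072) was counted 2421, 1833, 5443 and 2322 times, or 22.8, 21.9, 23.3 and 23.5 TPM. Slc11a1 (Nramp1), which pumps metal out of the phagosomes of macrophages and of which C57BL/6 mice are known to carry a non-functional allele, had 1.81, 2.27, 1.89 and 2.01 TPM. The log2 ratio of Slc11a2 over Slc11a1 was 3.46 ± 0.17. Slc40a1 (ferroportin, ENSMUSG00000025993.10, chr1:45908068-45926523), the exporter with the 5′ UTR site printed above, had 0 counts in all 4 libraries, and none of its 9000 exon bases are shared with another gene on its strand. Against a floor of 3 counts per library, Slc11a2 was at least 865-fold higher per length. Slc11a1 at 2.15 CPM ± 0.223 was close to the macrophage genes Cd68 (2.69 ± 0.315) and Adgre1 (2.6 ± 0.332). The macrophage markers as a list summed to 6.34, 5.17, 5.51 and 6.44 CPM, with Lyz2 and Vsig4 at 0 and Csf1r at 1 count in all. Slc11a1 was highest in replicate 2, where that sum was lowest, and how much of Slc11a1 came from such cells was not tested.

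Magnesium carriers summed to 62.5 TPM ± 2.47 and were almost all Slc41a1 (95.1% ± 0.184), which encodes a magnesium carrier of the cell surface. Slc41a1 (ENSMUSG00000013275.9, chr1:131827493-131848865) had 59, 57.1, 62.6 and 59.3 TPM, ranking 4 of the 30, or 5 with Slc39a7 over its unshared bases. Slc41a3, described in mitochondria, had 2.26, 1.95, 2.3 and 2.09 TPM and Slc41a2 0.784, 0.794, 1 and 0.972 TPM. Slc41a1 was higher than Slc41a2 by a log2 ratio of 5.92 ± 0.13, and the ratio of Slc41a3 over Slc41a1 was -4.73 ± 0.07. Slc41a2 was the carrier nearest the threshold among those called above it, at 1.38 CPM ± 0.17 (limma adjusted p = 0.0365). Without replicate 3 or replicate 4 that call was lost (adjusted p = 0.134 and 0.123).

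Of the 17 pairs compared within libraries, 16 had the same order in 4 of 4 libraries, and Slc39a9 and Slc39a11 did not. With 4 libraries an exact two-sided sign-flip test cannot reach a p of 0.05 (for all 4 libraries of 1 sign it gives 1 in 8), even before adjustment over the 17 pairs, so the pair orders rest on the sizes of the ratios beside their SDs. Those sizes depend on length: in CPM, 10 of the 17 ratios moved by over 1.5 times, among them Slc39a1 over Slc39a3 (1.07), Slc30a5 over Slc30a7 (1.17), Slc30a3 and Slc30a2 over Slc30a4 (-4.65 and -2.68), Slc11a2 over Slc11a1 (4.24) and Slc41a3 over Slc41a1 (-5.47). With a pseudocount of 1, Slc39a1 over Slc39a2 became 5.99 and Slc41a1 over Slc41a2 5.00.

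**Figure D3:**
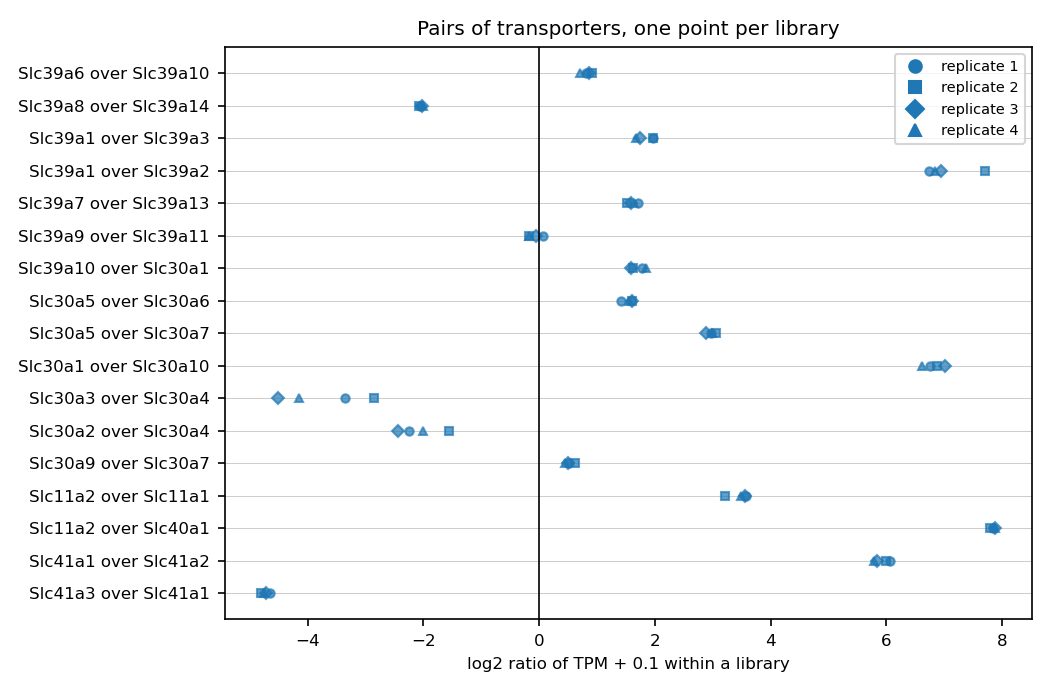
Log2 ratio of TPM + 0.1 within each library for the 17 pairs, with a vertical line at 0 for equal levels. The points of Slc39a9 over Slc39a11 lie on both sides of 0, those of Slc30a3 over Slc30a4 are spread from -4.51 to -2.86, and ratios over Slc30a10 and Slc40a1 are limited by the pseudocount.

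Among the 25 carriers that passed edgeR's expression filter, 20 had a CV in CPM below 10%, as did 67.6% of all 13279 genes that passed it. The median CV was 4.75% for these carriers and 6.21% for all those genes. Between 10 and 100 CPM, where 19 carriers lay, all 19 were below 10%, as were 91.5% of 5993 genes in that range, so such CVs are usual at these levels. Carriers above 1 CPM ranged from 1.13% to 50.3%. edgeR's goodness-of-fit test, which asks whether a gene varies more than the trend for its abundance, called 0 of the 25 carriers and 0.422% of all genes tested. At an unadjusted p under 0.05 it marked 2 carriers, Slc30a3 and Slc30a2. Their edgeR adjusted p-values were 0.147 and 0.474. Their CVs were 50.3% and 24.4%, against trend values of 19.9% and 10.7% for biological variation at their abundance. With 1 common dispersion in place of the trend, the same test called both. The common biological CV, 0.0764 as a fraction, lies below both trend values. The share of all genes called at that setting is not given, so these 2 calls have no background beside them.

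**Figure D4:**
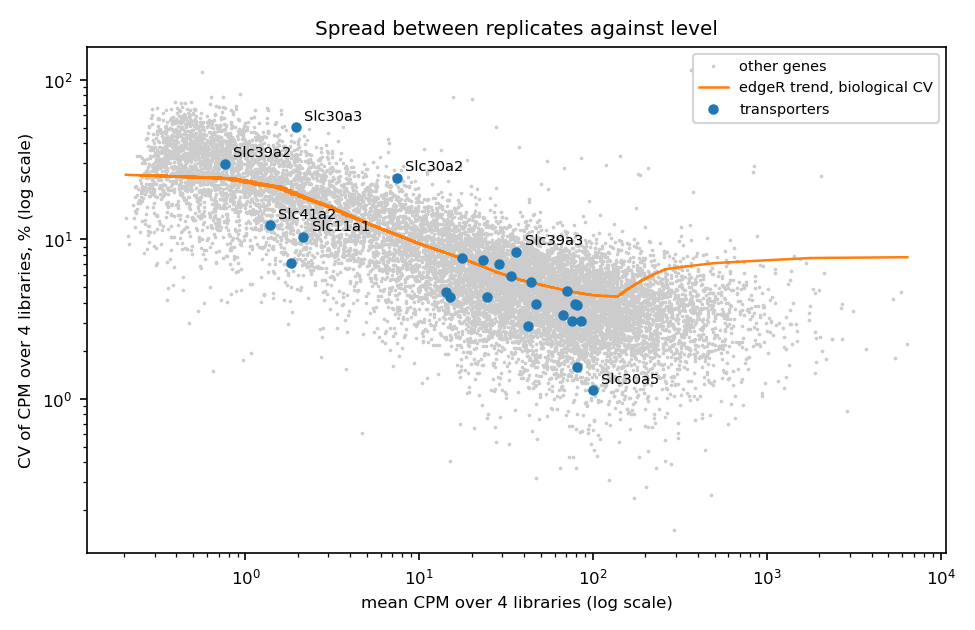
CV of CPM over the 4 libraries against mean CPM, both on log axes, for the carriers that passed the expression filter (blue), other genes (grey) and the edgeR trend (orange, biological CV without counting noise). Slc30a3 at 50.3% and Slc30a2 at 24.4% stand above the trend, and Slc30a5 at 1.13% is the lowest of the carriers.

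Other genes of the same metals were read with the same test, by which 69.3% of protein-coding genes with a count lay above 1 CPM. Of 7 further zinc genes, Mtf1 and Mt1 lay above 1 CPM, Mt3 and Mt4 below, and the zinc carrier gene Tmem163 and the zinc receptor gene Gpr39 had no count. Mt2, encoding another metallothionein, passed neither test at 0.896, 0.665, 0.986 and 0.543 CPM. Of these zinc-buffering genes, Mt1 stood at 9.02 TPM ± 1.22 and Mt2 at 4.51 ± 1.21, over 1246 and 588 annotated exon bases. The exon bases of Mt1 fill its whole span (chr8:94179082-94180327), so its level per length depends on the annotation. Of 20 further magnesium genes, 16 lay above, 1 below (Cnnm1), Nipal1 and Nipal4 passed neither, and Nipal2 had no count. The highest were Ptp4a2 (215 TPM ± 5.51) and Ptp4a3 (166 ± 11.6), phosphatases that bind the CNNM magnesium carriers, then Magt1 (71.4 ± 1.75) and Tusc3 (65.1 ± 2.17), subunits of oligosaccharyltransferase linked to magnesium uptake. Slc41a1 at 59.5 TPM ± 2.25 stood just under these. Of 26 further iron genes, 16 lay above, 5 below, Tfr2 passed neither and 4 had no count. The highest were Fth1 (984 TPM ± 52.6), the iron chaperone genes Pcbp1 (943 ± 21.7) and Pcbp2 (891 ± 21.8), and Tfrc (772 ± 20.8).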

How the data were processed

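The members and gene lists were chosen with earlier results of these data known. The authors deposited unnormalized counts of read pairs for each gene, made, per the file headers, with featureCounts 1.4.6-p4 over GENCODE M13 exons (both ends mapped, strand option 2). The command there has no option to keep reads that overlap several genes or map to several places. The assembly is mm10 per the labels. Symbols, from GENCODE M21, matched 50376 of 50600 genes (99.6%).

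CPM used total counts, and TPM the deposited exon lengths. Levels were tested with limma 3.58.1 (intercept only, trended empirical Bayes, adjusted p below 0.05), variability with edgeR 4.0.16 (TMM, filterByExpr), and pairs with exact sign-flip tests. The level and variability tests were tried on simulated data. Alternatives were DESeq2 1.42.0 size factors, TMM, other pseudocounts, thresholds and filters, thinning and leaving out each library. Added after seeing the data were the longest-transcript length and the unshared bases of Slc39a7. Identical stretches came from blastn 2.17.0+. It also found stretches 100% identical to another gene in Slc30a1 (469 bases), Slc30a10 (533 bases) and Slc39a9 (459 bases). Their effect on the counts was not tested. Scripts ran in R 4.3.3 and python 3.11.15, with scipy 1.17.1, numpy 2.4.6, pandas 2.3.3 and matplotlib 3.10.9.

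All members could be named. From other lists the rule took the 4 highest in TPM above the threshold, any passing neither test, and the markers. Mt3, Mt4, Tmem163, Gpr39, Cnnm1, Nipal2, Gm20427 and Slc39a1-ps were named after their values were seen.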

Additional observations from a re-analysis of the deposited data

Results flagged for a closer look

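In 7 of 83 genes tested over the 4 libraries, 1 library stood far from the other 3 by Dixon's test. Chance sets that test off in about 1 in 20 groups of continuous, normally spread values, a rate that does not hold for counts near 0. A gene counted in only 1 library is always flagged, and a gene with no count never is. The number flagged is therefore not set against that rate. Slc30a10 was the only carrier among them, at 0.0187 CPM in replicate 4 and 0 elsewhere, which is 1 count. Mt4 (0.0187 CPM, replicate 4) and the haem carrier gene Flvcr2 (0.0176 CPM, replicate 1) also rested on 1 count. Hamp (0.0749 CPM, replicate 4) and Cp (0.0313 CPM, replicate 3) each rested on 4 counts in 1 library. The iron regulator gene Hfe was at 0 CPM in replicate 2 and at 0.0351 to 0.0391 CPM in the others, 9 counts in all. The haem exporter gene Flvcr1 was highest in replicate 3, at 59.4 CPM against 57.1 to 57.4 CPM.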

How the results depend on the processing

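The count of 24 carriers above 1 CPM stayed within 1.5 times under every alternative run (20 at 2 CPM). The 2 carriers below 1 CPM became 0 with the expression filter, which removes both before testing, 4 at a threshold of 2 CPM, and 1 to 2 when each library was left out in turn (1 without replicate 4, where Slc30a10 then has no count). With a common dispersion, 2 carriers in place of 0 varied beyond it (Slc30a2 and Slc30a3), with no share over all genes given for that setting. At 2 CPM, Slc41a2 (1.38 CPM) passed to below the threshold (limma adjusted p = 0.0145), Slc39a2 fell below it, and Slc30a3, Slc41a3 and Slc11a1 passed neither test. In TPM against 1 TPM, Slc41a2 (0.888 TPM) passed neither. The ratio of Slc39a9 over Slc39a11 reversed to 1.51 in CPM and 0.54 with the longest-transcript length. Among the other pair values under an alternative, 36 moved by more than 1 SD, each with the length or the pseudocount used, with no change of sign, and 99 did not. No paired analysis was possible because there is 1 group. Depth limits statements on Slc40a1, Slc39a12, Slc30a8, Slc30a10 and Slc39a5 to levels under or near 3 counts per library.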
